A study of Mus musculus with 8 samples.

Results

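The canonical NF-kB genes described here are those of the subunits Nfkb1, Rel and Rela, of the IkB proteins Nfkbia, Nfkbib and Nfkbie, of the kinase complex subunits Ikbkb and Ikbkg, and of the feedback regulator Tnfaip3. They were taken from the mRNA table by gene symbol, and 9 of the 22298 genes in it carry these names. The samples came from the bone marrow of untreated, wild type female C57BL/6 mice aged 8 to 10 weeks, from which B-lineage cells of 4 stages were sorted. Pro-B cells were gated as B220+IgM-CD43+, pre-B cells as B220+IgM-CD43-, immature B cells as B220+IgM+CD43- and mature B cells as B220hi IgM+CD43-. Each stage was a pool of cells from 3 mice, sequenced once after rRNA depletion and once for small RNAs. No stage has a replicate check, and every interval given covers counting error only, in reads without molecular identifiers.

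NF-kB proteins are dimeric transcription factors that IkB proteins hold in the cytoplasm. The IKK complex, in which Ikbkb encodes the catalytic IKKbeta and Ikbkg the scaffold NEMO, phosphorylates the IkB proteins and thereby marks them for degradation, so that dimers such as p50-RelA and p50-c-Rel enter the nucleus. Nfkbia and Tnfaip3 are themselves target genes of NF-kB, and the protein of Tnfaip3, A20, edits ubiquitin chains upstream of the kinase and damps the signal. In B cells the pathway is driven by the pre-B cell receptor, the B cell receptor, Toll-like receptors and CD40, and c-Rel is a main subunit of mature B cells.

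The mRNA counts summed to 867920 for pro-B, 240231 for pre-B, 223495 for immature B and 849350 for mature B cells. They are given as CPM, that is, scaled to a column total of 1000000, so that 1 count was worth between 1.15 and 4.47 CPM. Pre-B and immature B cells stood apart from the other stages: mRNAs took 6.47% and 6.48% of the mRNA and lncRNA counts together there, against 23.7% in pro-B and 23.5% in mature B cells. A scaling that includes the lncRNAs therefore places most genes lower at both of these stages. The FPKM values of the authors do so too, for which the cause was not tested. The median log2 ratio of all genes from pro-B to pre-B cells was -0.44 in CPM and -2.18 in FPKM, and from immature B to mature B cells it was 0.27 in CPM and 1.99 in FPKM. It was -0.19 in CPM and -0.15 in FPKM between mature B and pro-B cells, and -0.02 and 0.02 between immature B and pre-B cells. The B lineage markers (6 genes) were all present at every stage, at 4283 to 5776 CPM in sum. The pro-B markers were at 2321 CPM in pro-B cells and at 44.7 to 179 CPM in the others, the pre-B markers were at 1278 and 1066 CPM in pro-B and pre-B cells and at 15.1 CPM in mature B cells, and the mature B markers were at 4857 CPM in mature B cells and at most 944 CPM elsewhere, with Fcer2a and Cxcr5 at 0 before the mature stage. The 4 genes of the immature list, which Ighm led at each stage, ranged from 4337 CPM in pro-B to 9504 CPM in immature B cells. The myeloid markers were at 843 to 1120 CPM in all libraries, with Csf1r at 0, and the erythroid markers at 59.1 to 246 CPM.

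The kappaB motif, the consensus to which NF-kB dimers bind, was looked for on both strands of the RefSeq windows (GRCm38.p6) from 250 bases before to 50 after each gene start, because several of these genes are targets of the factor they control. Windows of 7 of the 9 members were on hand (Nfkb1 and Ikbkb are not in the table), and 4 of the 7 held at least 1 match, against 8.46% of all 32851 windows and 9.55% of 27025 genes. The matches, in capitals with 20 bases to either side, are shown 5′ to 3′ on the strand of the gene. Tnfaip3 held a match that began 125 bases before its start (chr10:19015506-19015555, minus strand) and another at 12 bases before it (chr10:19015393-19015442). The 2 matches of Rel overlapped and began 92 bases before its start (chr11:23771031-23771081, minus strand). Those of Nfkbia (chr12:55492647-55492696, minus strand) and Nfkbie (chr17:45555574-45555623, plus strand) began 29 and 106 bases before the start. The windows of Nfkbib, Rela and Ikbkg held no match. A match is a run of letters and no evidence of binding.
Rel: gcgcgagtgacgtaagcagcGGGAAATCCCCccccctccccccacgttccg
Nfkbia: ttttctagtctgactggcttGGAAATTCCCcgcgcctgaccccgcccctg
Nfkbie: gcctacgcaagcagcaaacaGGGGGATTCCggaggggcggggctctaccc
Tnfaip3, upstream match: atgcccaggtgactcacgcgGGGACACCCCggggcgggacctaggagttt
Tnfaip3, match at the start: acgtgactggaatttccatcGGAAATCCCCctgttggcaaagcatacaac

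The most direct comparison is that of mature B with pro-B cells, whose libraries were of like depth and mRNA share. Rel, Nfkbib and Ikbkb were at least 2-fold higher in mature B cells and Nfkbie at least 2-fold lower. The CPM ratios of Nfkb1, Rela and Ikbkg were 1.33, 1.53 and 1.73, and those of Nfkbia and Tnfaip3 were 0.525 and 0.643, all short of this size. With a call set at a CPM ratio of at least 2, and 10 counts needed in at least 1 of the libraries compared, all 9 genes passed the count filter, 3 were higher (Rel, Nfkbib and Ikbkb) and 1 was lower (Nfkbie). Nfkbie passed the filter through the pro-B library alone, where it is higher, and at a minimum of 30 counts 3 were higher and 0 lower. In FPKM 4 were higher, with Ikbkg, and 2 lower, with Tnfaip3. The CPM call at 10 counts, with 3 higher and 1 lower, is 33.3% and 11.1% of the 9 genes. By this CPM rule 13.2% of the 9634 genes tested were higher and 24.2% lower. The median log2 CPM ratio of the 9 was 0.61, and 6 of them lay above the median of all genes. The direction of each gene was the same under the column total, TMM factors, DESeq2 size factors, the total with lncRNAs, the total without immunoglobulin and mitochondrial genes, and the FPKM values.

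**Figure D1:**
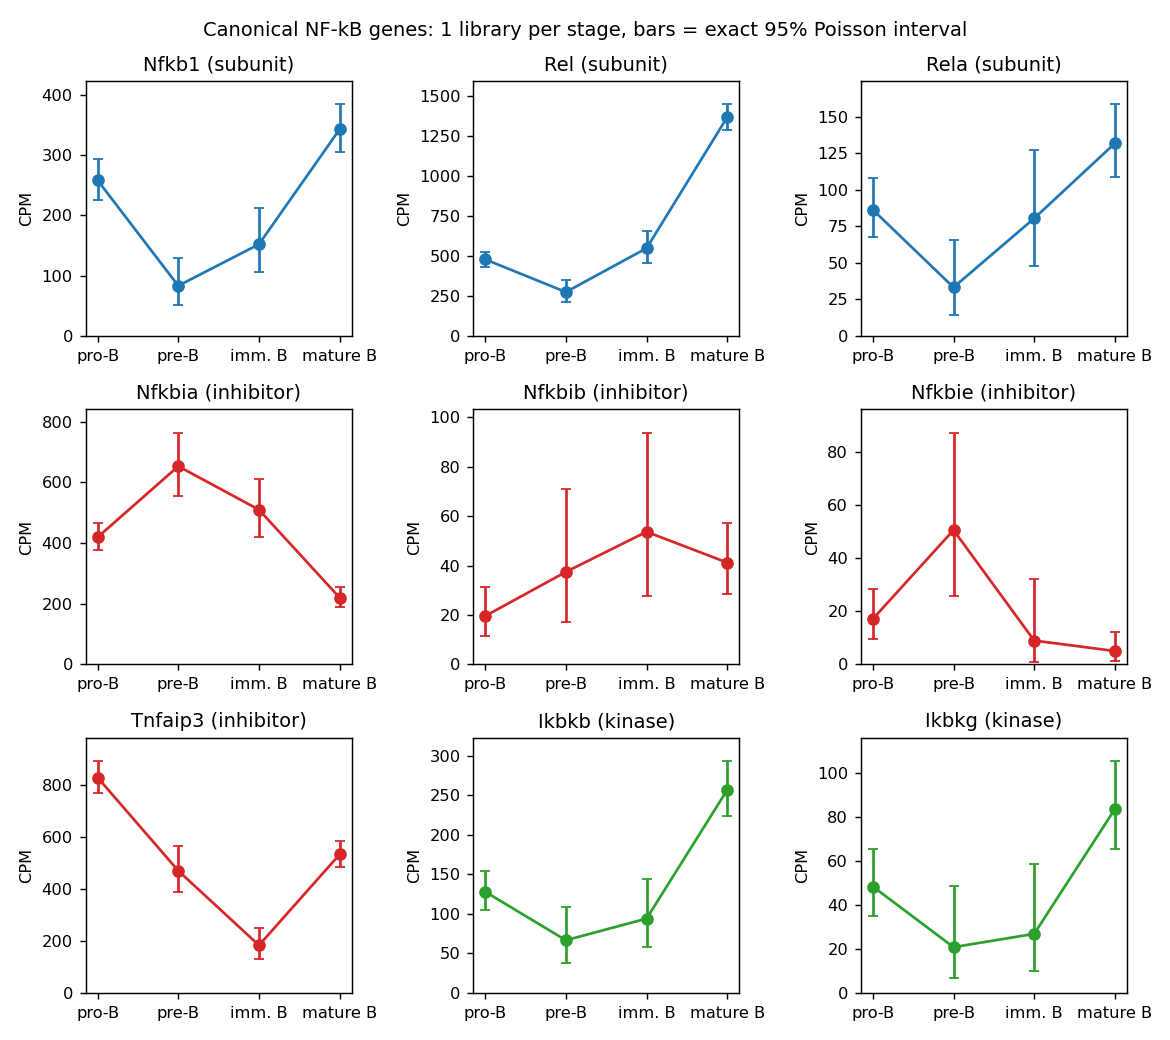
CPM of each of the 9 genes on the y axis (each panel from 0, with its own scale) in the pro-B, pre-B, immature B (imm.) and mature B library on the x axis, 1 library per stage, with exact 95% Poisson intervals as bars; blue marks subunits, red inhibitors and green kinase subunits. Rel reached 1367 CPM in mature B cells, whereas Nfkbia was highest in pre-B cells at 653.5 CPM (in FPKM in pro-B cells) and Tnfaip3 in pro-B cells at 829 CPM.

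Rel, which encodes c-Rel, had 415 counts in pro-B, 65.95 in pre-B, 122.5 in immature B and 1161 in mature B cells, or 478, 274.5, 548 and 1367 CPM. Mature B cells stood above all other stages, the intervals of immature B (457 to 657 CPM) and pro-B cells (433 to 526 CPM) overlapped, and pre-B cells were lowest. By FPKM it stood at percentile 97.1 of the detected genes in mature B cells and at 88.4 in pro-B cells. The CPM ratio of mature B to pro-B cells was 2.86 (95% interval, 2.55 to 3.21), and that of mature B to immature B cells was 2.49 (2.06 to 3.02). The step from pre-B to immature B cells was 1.997-fold up (1.47 to 2.74), just under the call, and past it with TMM factors.

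Nfkb1, which encodes p105 and its product p50, had 224, 20, 34 and 291 counts from pro-B to mature B cells, or 258, 83.3, 152 and 343 CPM. It was lowest in the pre-B and immature B libraries, whose intervals (50.9 to 129 and 105 to 213 CPM) overlapped, and highest in mature B cells. The ratio of immature B to pre-B cells was 1.83 (1.02 to 3.35), short of the call. The ratio of mature B to pro-B cells was 1.33 (1.11 to 1.59). From pro-B to pre-B cells it was 3.10-fold lower (1.96 to 5.17), which was also below the median of all genes, by 1.19 log2 units in CPM (log2 difference -1.19) and by more in FPKM (-1.52). From immature B to mature B cells it was 2.25-fold higher (1.58 to 3.32).

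Rela, which encodes the transactivating p65, was the subunit with the fewest counts, 75, 8, 18 and 112 from pro-B to mature B cells, or 86.4, 33.3, 80.5 and 132 CPM. The order of the stages was that of Nfkb1, but with 8 counts the pre-B value spanned 14.4 to 65.6 CPM, and that of immature B cells (47.7 to 127 CPM) overlapped those of all other stages. Mature B cells were 1.53-fold above pro-B cells (1.13 to 2.07). The ratio of immature B to pre-B cells of 2.42 passed the call with an interval (1.001 to 6.43) that began at 1, and on FPKM values it was near 1 (1.53 and 1.63 FPKM).

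The subunits also shifted in proportion within each library, a measure that does not depend on library size. Rel made up 58.1% of the counts of the 3 subunits in pro-B cells (exact Clopper-Pearson interval, 54.4% to 61.8%). In the pre-B and immature B libraries it made up 70.2% (59.9% to 79.2%) and 70.2% (62.9% to 76.9%), and at the mature stage 74.2% (72.0% to 76.4%). The share of Nfkb1 went the other way, from 31.4% (28.0% to 34.9%) in pro-B to 18.6% (16.7% to 20.6%) in mature B cells, and that of Rela was 10.5% and 7.16%. By FPKM the share of Rel was 34.75%, 37.4%, 48.6% and 51.6% from pro-B to mature B cells. Its odds in pre-B against pro-B cells were 1.70 times higher in counts (1.05 to 2.81) but 1.12 times by FPKM. By FPKM the share of Rela was 18.8% in pro-B and 37.1% in pre-B cells, whereas in counts it was 10.5% and 8.5%. The odds of a subunit count coming from Rel were 2.08 times higher in mature B than in pro-B cells (1.71 to 2.51), and 2.001 times higher by FPKM. Since counts grow with transcript length, levels of different genes can only be compared in FPKM: in pro-B cells these were 13.7 for Nfkb1, 10.2 for Rel and 5.53 for Rela, and in mature B cells 18.4, 29.4 and 9.16. Rel thus stood below Nfkb1 per length in pro-B cells and above it in mature B cells.

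Nfkbia, which encodes IkBalpha, the inhibitor that NF-kB resynthesises after activation, had 364 counts in pro-B, 157 in pre-B, 114 in immature B and 187 in mature B cells. In CPM this was 419, 653.5, 510 and 220, so mature B cells lay below every other stage, while the intervals of pre-B (555 to 764) and immature B cells (421 to 613) overlapped, as did those of immature B and pro-B cells (377 to 465). The ratio of immature B to pre-B cells was 0.78 (0.608 to 0.9997). Mature B cells were 1.90-fold below pro-B cells (1.59 to 2.29) and 2.32-fold below immature B cells (1.82 to 2.94). The latter direction turned in FPKM, from 13.7 in immature B to 22.4 in mature B cells, as did that of the step from pro-B (42.4 FPKM) to pre-B cells (17.3 FPKM). Relative to the median of all genes, both scales gave the same sign at each of these steps: 1.08 log2 units above it in CPM and 0.89 in FPKM from pro-B to pre-B cells, and -1.48 and -1.28 from immature B to mature B cells. By FPKM percentile among detected genes Nfkbia was at 98.4 in both pro-B and pre-B cells and at 95.9 in mature B cells.

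Nfkbib, which encodes IkBbeta, had 17, 9, 12 and 35 counts from pro-B to mature B cells, or 19.6, 37.5, 53.7 and 41.2 CPM. The intervals of all neighbours in this order overlapped, and the pro-B value (11.4 to 31.4 CPM) was the lowest in CPM. In FPKM pre-B cells (1.45) lay below pro-B cells (1.87), and the direction of this step also turned with lncRNAs in the total. Mature B cells were 2.104-fold above pro-B cells (1.15 to 4.01). Nfkbie, which encodes IkBepsilon, had 14.9, 12.2, 2.01 and 4.29 counts, or 17.1, 50.6, 8.99 and 5.05 CPM. It stood highest in pre-B cells, at 2.95 times the pro-B level (1.24 to 6.61), although the direction turned in FPKM (1.16 in pro-B and 0.900 in pre-B cells) and with lncRNAs in the total. Its ratio of immature B to pre-B cells was a 5.62-fold lower value (1.24 to 51.4) from only 2.01 counts, and it passed the count filter there through the pre-B library alone. Mature B cells were 3.39-fold below pro-B cells (1.17 to 15.2).

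Tnfaip3 had 720 counts in pro-B, 113 in pre-B, 41 in immature B and 453 in mature B cells, or 829, 470, 183 and 533 CPM. Pro-B cells were highest and immature B cells lowest, and the intervals of mature B (485 to 585 CPM) and pre-B cells (388 to 566 CPM) overlapped. It was 2.56-fold lower in immature B than in pre-B cells (1.78 to 3.76), but in FPKM these stages had nearly the same value (5.69 and 5.79). From immature B to mature B cells it was 2.91-fold higher (2.11 to 4.11), 1.27 log2 units above the median of all genes in CPM but -0.15 from it in FPKM. Mature B cells were 1.56-fold below pro-B cells (1.38 to 1.75), and 53.3 and 20.8 in FPKM put them further apart. The T and NK cell and plasmacytoid dendritic cell markers were also highest in the pro-B library. Those of T and NK cells summed there to 178 counts (205 CPM, of which Gzma gave 122 and Cd3e 0), beside 0 counts in the pre-B and immature B libraries and 5 counts at the mature stage. The plasmacytoid dendritic cell list summed to 1902 CPM in pro-B cells and to 470, 967 and 867 CPM in the later stages, where Irf8 led and Siglech was at 0 in pre-B and mature B cells. Their part in the levels of Tnfaip3 and the other genes in pro-B cells was not tested. In bulk RNA, fewer cells that express a gene and less RNA of it per cell cannot be told apart.

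Ikbkb had 111, 16, 21 and 218 counts from pro-B to mature B cells, or 128, 66.6, 93.96 and 257 CPM, with mature B cells above all others and overlapping intervals between each other pair of neighbours. Its ratio of pre-B to pro-B cells was 0.521, with an interval below 1 (0.288 to 0.884). Ikbkb was 2.01-fold higher in mature B than in pro-B cells (1.59 to 2.55), at the edge of the call, and 2.73-fold higher than in immature B cells (1.74 to 4.50). With lncRNAs in the total the former ratio was no longer called. Ikbkg had 42, 5, 6 and 71 counts, or 48.4, 20.8, 26.8 and 83.6 CPM. It was 1.73-fold higher in mature B than in pro-B cells (1.16 to 2.59) and 3.11-fold higher than in immature B cells (1.36 to 8.77). In FPKM the ratio of mature B to pro-B cells was 2.94 for Ikbkg, past the call. The pre-B and immature B intervals overlapped for both kinase genes, and mature B cells had the highest value of each. Their counts together were 17.6% of the kinase and subunit counts at the pro-B stage (15.2% to 20.4%) and 15.6% at the mature stage (14.0% to 17.3%), and these intervals overlapped. By FPKM the direction was the opposite, with shares of 25.0% at the pro-B stage and 31.8% at the mature stage.

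**Figure D2:**
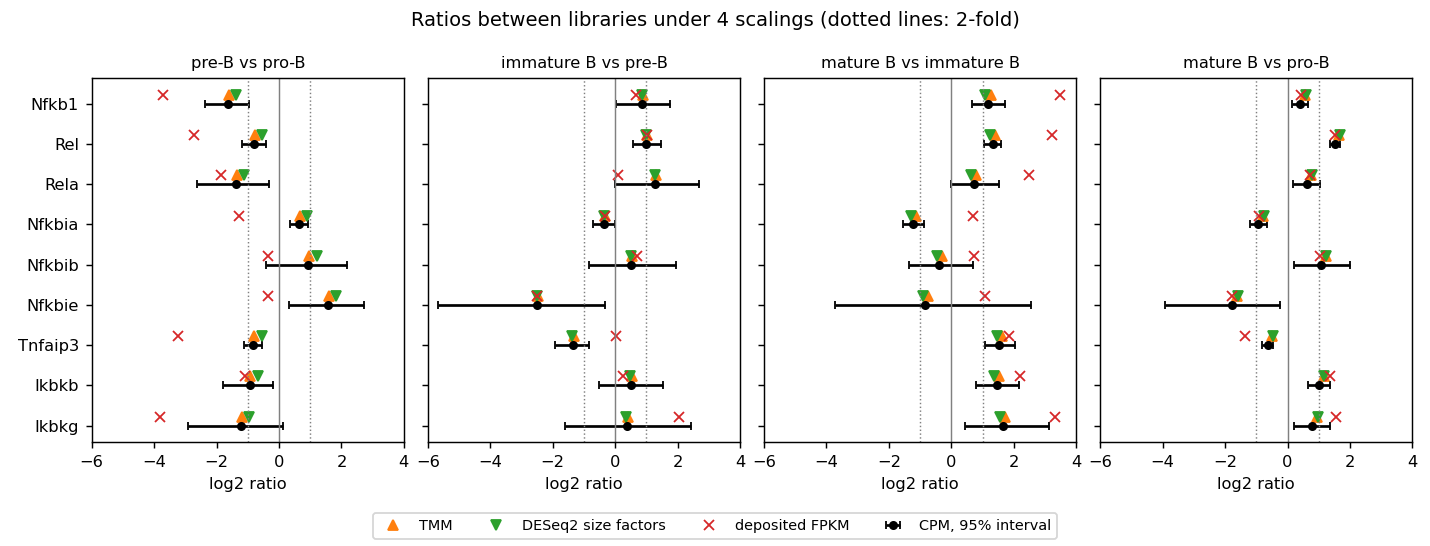
Log2 ratio on the x axis for each of the 9 genes (rows) in the 4 comparisons (panels), as CPM with its exact 95% counting interval in black, with TMM factors and DESeq2 size factors as triangles and from the deposited FPKM as crosses. The scalings lie close together for mature B vs pro-B, apart from the FPKM of Tnfaip3 and Ikbkg, and Rel lies at 1.51 there in CPM, whereas the FPKM values lie to the left for pre-B vs pro-B and to the right for mature B vs immature B, as did the medians of all genes (-2.18 and 1.99).

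From pro-B to pre-B cells 1 of the 9 genes was higher by the call (Nfkbie) and 3 were lower (Nfkb1, Rela and Ikbkg), where 14.8% of 9152 genes were higher and 31.4% lower. Rela (8 against 75 counts) and Ikbkg (5 against 42 counts) passed the filter through the pro-B library alone, where they are higher. The interval of Ikbkg (ratio 0.430, 0.133 to 1.09) spanned 1, and at a minimum of 30 counts Nfkbie was no longer tested. The DESeq2 size factors gave 2 higher and 2 lower, and the FPKM values 0 higher and 7 lower, as did the total with lncRNAs. Of all genes, 19.1% were higher and 24.1% lower with the DESeq2 size factors. In FPKM these shares were 2.57% and 81.55%, and with lncRNAs in the total 2.34% and 83.5%. The 3 IkB genes lay above the median of all genes at this step and the 6 others below it in CPM, while in FPKM Rela and Ikbkb lay above it too. From pre-B to immature B cells 8 genes passed the count filter, Ikbkg being short of it. By the call 1 was higher (Rela) and 2 were lower (Nfkbie and Tnfaip3), beside 18.9% of 5838 genes higher and 20.2% lower. Rela (18 against 8 counts) passed the filter through the immature B library alone, where it is higher. Nfkbie (2.01 against 12.2 counts) passed it through the pre-B library alone. At a minimum of 30 counts 0 were higher and 1 was lower (Tnfaip3), beside 4.83% and 5.41% of the 5838 genes. With TMM factors Rel joined the higher genes, for 2 and 2, and FPKM gave 1 (Rel) and 1 (Nfkbie). Among all genes, 19.6% were higher and 19.6% lower with TMM factors, and 22.01% and 22.08% in FPKM. From immature B to mature B cells 8 genes passed, Nfkbie being short of it, and 5 were higher (Nfkb1, Rel, Tnfaip3, Ikbkb and Ikbkg) and 1 was lower (Nfkbia). This was 62.5% and 12.5%, where 26.7% of 8363 genes were higher and 18.1% lower. Ikbkg (71 against 6 counts) passed the filter through the mature B library alone, where it is higher. In FPKM 6 were higher and 0 lower, and with lncRNAs in the total 7 and 0, where 77.4% and 79.7% of all genes were higher.

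The balance between the inhibitor genes and the subunit genes can be followed within each library, free of any library size. Summed over Nfkbia, Nfkbib, Nfkbie and Tnfaip3 and divided by the sum over Nfkb1, Rel and Rela, the count ratio was 1.56 (1.42 to 1.72) in pro-B, 3.10 (2.44 to 3.95) in pre-B, 0.968 (0.777 to 1.20) in immature B and 0.434 (0.396 to 0.475) in mature B cells. The ratio was thus highest in pre-B and lowest in mature B cells, and none of the 4 intervals overlapped. Sums of counts weight each gene by its transcript length, so the size of the ratio and of its differences between stages depend on that weighting. Pre-B cells stood 1.98 times above pro-B cells (1.53 to 2.57), immature B cells 3.20-fold below pre-B cells (2.31 to 4.45) and mature B cells 2.22-fold below immature B cells (1.76 to 2.82). Mature B cells were 3.60-fold below pro-B cells (3.15 to 4.11). The FPKM sums gave 3.36, 6.15, 3.43 and 0.831: pre-B cells were again highest and mature B cells lowest, but pro-B and immature B cells were at nearly the same ratio. This grouping was chosen after the values of the genes were seen.

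Single genes set the size of some of these steps. Without Tnfaip3, the 3 IkB genes over the subunits gave 0.554, 1.90, 0.734 and 0.145 from pro-B to mature B cells, with the immature B library now above the pro-B library. Without Nfkbia the ratio was 1.05, 1.43, 0.315 and 0.315, so that in counts the last step was gone (ratio of mature B to immature B cells 1.001, interval 0.722 to 1.41). In FPKM it remained without Nfkbia, from 1.29 to 0.438. The pre-B peak was small without Nfkbia. Pre-B cells stood 1.35 times above pro-B cells in counts (1.01 to 1.82), and in FPKM the 2 ratios were nearly the same, 1.915 in pro-B and 1.95 in pre-B cells. Without Rel the ratio of mature B to pro-B cells was 2.21-fold lower (1.85 to 2.66) in place of 3.60-fold. Nfkbia gave 92.0% of the counts of the 3 IkB genes at the pro-B stage (88.8% to 94.4%) and 82.6% at the mature stage (77.2% to 87.4%).

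**Figure D3:**
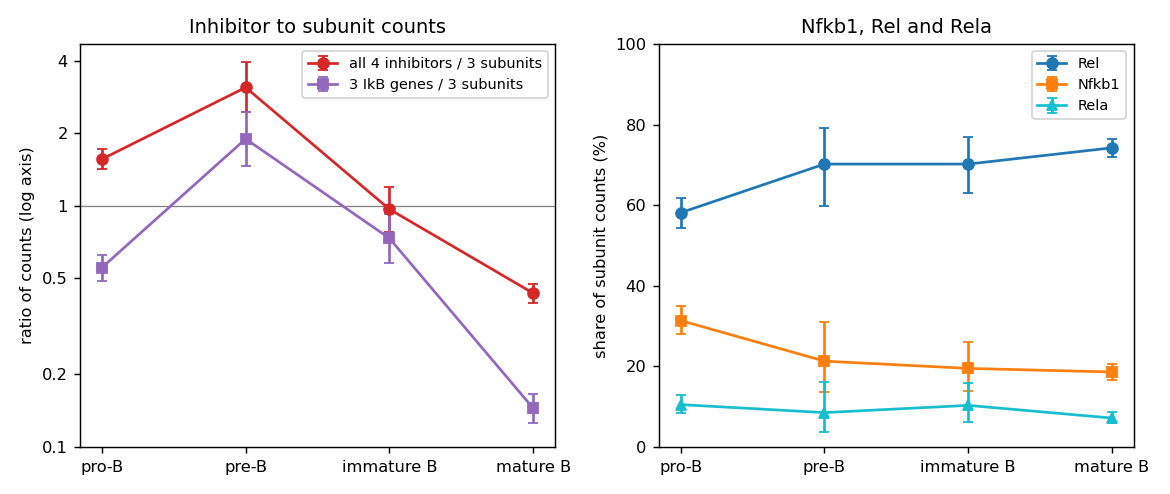
Left, counts of the inhibitor genes divided by counts of the 3 subunit genes in each library on a log axis, with Tnfaip3 (red circles) and without it (purple squares); right, the share of the subunit counts in percent held by Rel, Nfkb1 and Rela. Bars are exact 95% counting intervals; the ratio with Tnfaip3 is 3.10 in pre-B and 0.434 in mature B cells, and the share of Rel is 58.1% in pro-B and 74.2% in mature B cells.

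The genes with profiles most like that of Rel over the 4 libraries, by the Euclidean distance of centred log2(CPM + 1) values among 4737 genes with at least 100 counts, were B3gnt5 (distance 0.131), Nod1 (0.150) and Lrba (0.181). B3gnt5, a glycosyltransferase gene, was at 116, 66.6, 125 and 357 CPM from pro-B to mature B cells. Nod1, an innate immune sensor that signals to NF-kB, was at 33.4, 16.6, 35.8 and 84.8 CPM, from as few as 4 counts in pre-B cells. The genes most like Tnfaip3 were Heatr5b (0.166), Alg10b (0.198) and Trim30a (0.207), with 3, 6 and 12 counts in immature B cells. With 4 points a profile is a description of these libraries.

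Of 52 other genes of the pathway, in 7 lists, 48 reached 10 counts in at least 1 library. The lists were chosen with earlier results of these data known, so their shares beside those of all genes are a description and no test. In mature B against pro-B cells 14 of them were higher (29.2%), 5 lower (10.4%) and 29 neither, with a median log2 ratio of 0.57, beside the 13.2% and 24.2% of all genes and their median of -0.19. In the step from pro-B to pre-B cells 4 of 47 were higher (8.51%, all genes 14.8%) and 14 lower (29.8%, all genes 31.4%). From pre-B to immature B cells 12 of 40 were higher (30%, all genes 18.9%) and 6 lower (15%, all genes 20.2%). Of the higher ones, Tnip1, Icam1, Cd83, Cd40, Myc and Gadd45b reached 10 counts in immature B but not in pre-B cells. They thus passed the filter only through the library where they are higher. From immature B to mature B cells 15 of 48 were higher (31.2%, all genes 26.7%) and 3 lower (6.25%, all genes 18.1%). The other comparisons also held called genes that passed the filter only through the library where they are higher.

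Upstream of the kinase, 1 of the 8 genes that link the antigen receptor to IKK was higher in mature B than in pro-B cells and 1 was lower, or 12.5% each beside 13.2% and 24.2% of all genes, with a median log2 ratio of 0.25. Malt1, which encodes the paracaspase that works with Bcl10 to carry the B cell receptor signal to IKK, had 83.5 counts in pro-B, 16 in pre-B, 55 in immature B and 371 in mature B cells. It was 4.54-fold higher in mature B than in pro-B cells (3.55 to 5.79). Prkcb, a kinase gene of the same route, was 1.90-fold higher (1.61 to 2.27), short of the call. Traf6, a ubiquitin ligase of Toll-like receptor and CD40 signalling, was 2.35-fold lower (1.88 to 2.95), at 318, 241, 67.1 and 135 CPM from pro-B to mature B cells. Ube2n, its partner enzyme, was 1.44-fold lower. Of the 4 noncanonical genes 2 were higher and 0 lower, or 50% and 0% beside 13.2% and 24.2% of all genes. The kinase gene Map3k14 was higher by 2.73-fold (1.90 to 3.98) and the subunit gene Relb by 2.33-fold (1.58 to 3.49), whereas Nfkb2 was 1.79-fold higher and Chuk was at a ratio of 1.09, both short of the call.

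Of the 3 atypical IkB genes Bcl3 was 2.04-fold higher (1.07 to 4.09) and Nfkbiz, which encodes the nuclear IkBzeta, was 2.09-fold lower (1.69 to 2.60). This was 33.3% each way. For this list and the next 2, the shares of all genes were 13.2% higher and 24.2% lower. None of the 5 genes of linear ubiquitin chains and deubiquitinases was called, and their ratios ran from Rbck1, 1.92-fold lower, to Otulin, 1.75-fold higher. Nor was any of the 4 tested partners of A20 called, with ratios between 1.02 (Rnf11) and 1.31 (Tnip1). The median log2 ratios of these 3 lists were 0.88, 0.32 and 0.23.

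Of 17 NF-kB target genes 14 were tested, and 6 were higher and 2 lower in mature B than in pro-B cells, with a median log2 ratio of 0.73. This was 42.9% and 14.3%, beside 13.2% and 24.2% of all genes. Cd83, a surface marker of activated B cells, had 35, 2, 19 and 809 counts from pro-B to mature B cells and was 23.6-fold higher in mature B than in pro-B cells (16.8 to 34.2). Ccr7, the receptor for lymph node chemokines, was 10.4-fold higher (8.51 to 12.8), and is also in the mature B marker list. Bcl2l1, which encodes the survival protein Bcl-xL, was 14.3-fold lower, from 88 counts in pro-B to 6 in mature B cells (6.34 to 40.2), and Ccnd2, which encodes cyclin D2, was 2.53-fold lower (1.75 to 3.72). The near-identical Bcl2a1 genes, whose reads may be split between copies, had 0 counts in pro-B cells, and Bcl2a1b had 12.8 in mature B cells.

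Of the 10 immediate early genes, which report stimulation or handling of cells, 4 were higher and 1 was lower in mature B than in pro-B cells. This was 40% and 10%, beside 13.2% and 24.2% of all genes. Junb was 4.43-fold higher (3.98 to 4.93) and Fosb 2.98-fold higher (2.54 to 3.49), whereas Jun was 3.34-fold lower (2.97 to 3.75), from 1461 to 438 CPM. Jun was thus higher in the library in which Tnfaip3 was highest, and Junb in the library in which Rel was highest. Whether handling had a part in the levels of Nfkbia and Tnfaip3 was not tested.

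**Figure D4:**
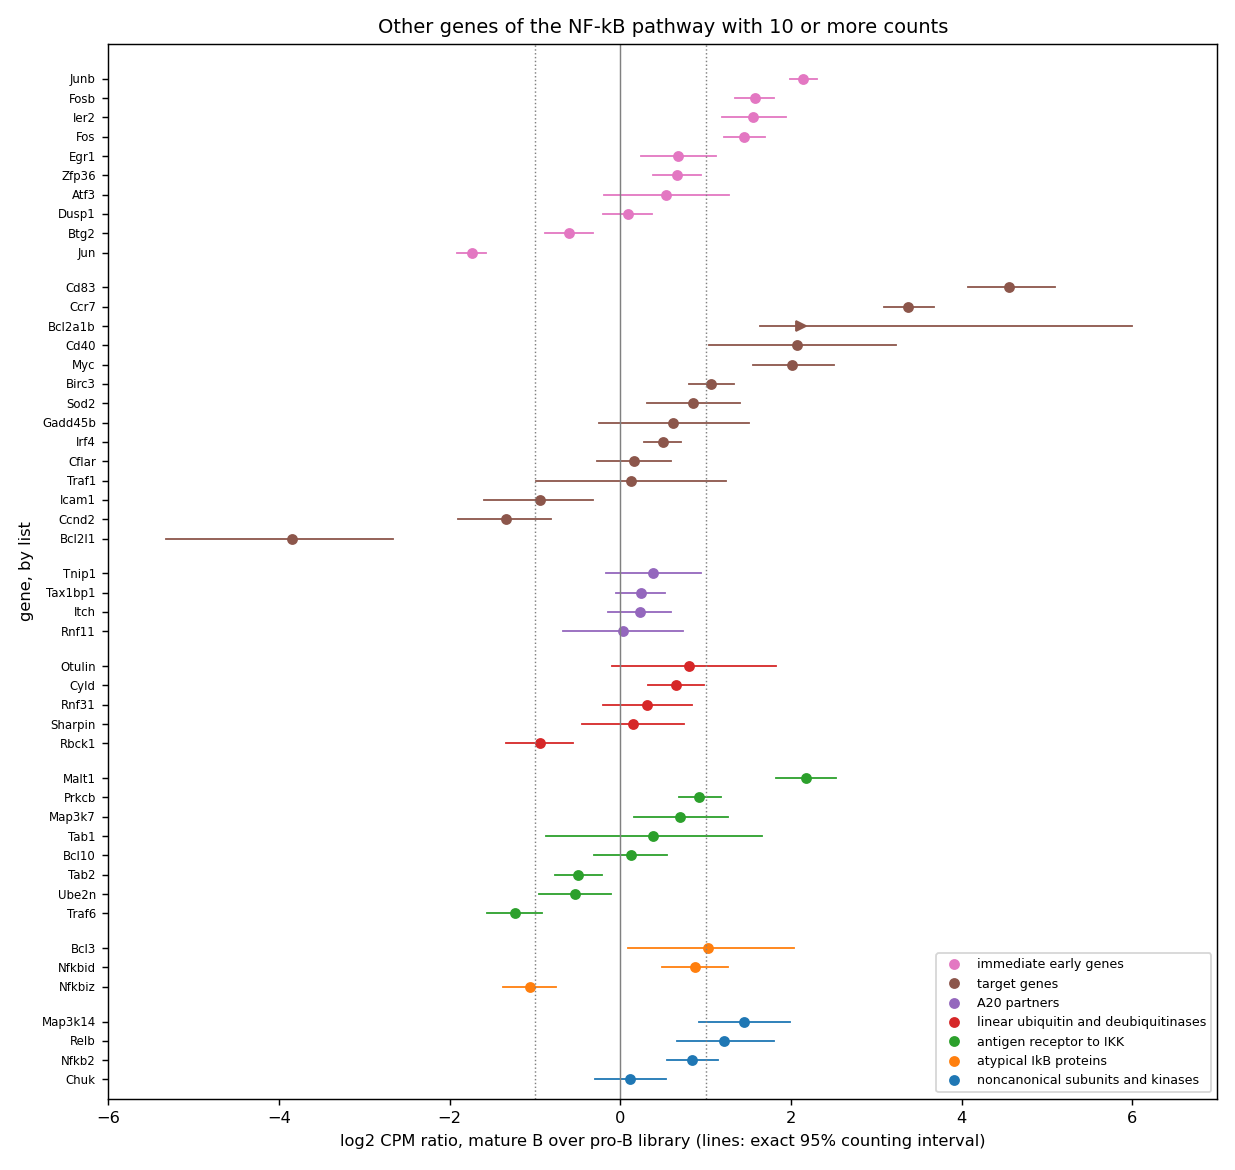
Log2 CPM ratio of mature B to pro-B cells on the x axis for the 48 other pathway genes with at least 10 counts, grouped by list in colour, with exact 95% counting intervals as lines and the 2-fold call as dotted lines. Cd83 (23.6-fold) and Ccr7 lie farthest to the right and Bcl2l1 (14.3-fold lower) farthest to the left; the triangle marks Bcl2a1b, whose pro-B library held 0 counts, at 4.35-fold over a floor of 3 counts, with a counting interval from 3.11.

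The small RNA libraries add 4 miRNAs with known ties to the pathway, shown 5′ to 3′ with their seeds, bases 2 to 8, in capitals. The mature sequences in RefSeq were the same as those deposited, and no seed was shared.
mmu-miR-146a-5p: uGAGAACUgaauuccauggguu
mmu-miR-155-5p: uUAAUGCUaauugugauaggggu
mmu-miR-125b-5p: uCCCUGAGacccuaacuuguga
mmu-miR-9-5p: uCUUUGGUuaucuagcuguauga

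In these libraries, miR-146a-5p, which NF-kB induces and which represses Traf6, was at 5257 TPM (tags scaled to 1000000 clean tags) in pro-B, 4364 in pre-B, 10605 in immature B and 13003 in mature B cells. The mature B value was 2.47 times the pro-B value, where Traf6 mRNA was 2.35-fold lower. From immature B to mature B cells both were higher, Traf6 at 67.1 and 135 CPM. The level of miR-155-5p, which is induced in activated B cells, was 84.3, 74.0, 101 and 122 TPM. The other two miRNAs were lower late in the series: miR-125b-5p, for which Tnfaip3 is a described target, was at 7998, 3149, 501 and 1391 TPM, and miR-9-5p, for which Nfkb1 is one, gave 11, 11, 11 and 1 tags. Each of these is 1 small RNA library per stage, and no relation to the mRNA levels was tested.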

How the data were processed

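RNA of pooled, sorted bone marrow B cells was sequenced in 4 rRNA-depleted and 4 small RNA libraries. The authors cleaned reads with fastp 0.18.0, removed rRNA with Bowtie2 2.2.8, mapped the rest strand-specifically with HISAT2 2.1.0 and used StringTie 1.3.4, and deposited estimated counts that were not all whole, without normalization. The FPKM values that the authors deposited are scaled to transcript length and mapped fragments. The circRNA counts as deposited are back-spliced reads found with find_circ, beside deposited RPM values, which were not used. The miRNA counts as deposited are tags, and the deposited TPM values are tags scaled to 1000000 clean tags, with 0.01 in place of 0. The submitters' processing notes list mm9 and Bowtie 0.12.2. Of 945 circRNAs of named genes, 924 lay within 1000 bases of their gene in GRCm38, so their coordinates are given as deposited.

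The 9 genes were matched by symbol. CPM is the count over the column total of the mRNA table. Counts were rounded for exact Poisson intervals of levels, Clopper-Pearson intervals of shares and exact conditional binomial intervals of ratios, all at 95%. A ratio of at least 2 with at least 10 counts in 1 library was called. No test was the main result, since 1 library per stage leaves none, and edgeR 4.0.16 (exact test at a fixed dispersion, TMM) and DESeq2 1.42.0 (size factors) served as alternatives on rounded counts, in R 4.3.3. Python 3.11.15 was used with scipy 1.17.1, matplotlib 3.10.9, pandas 2.3.3 and numpy 2.4.6, and the calculations were tested on simulated data. All 9 members are named. Of other genes, at most the 2 largest and 2 smallest mature B to pro-B ratios of each pathway list, the 3 nearest profiles of Rel and Tnfaip3, and markers at 0 or leading a sum are named. Bcl2a1b, Icam1, Cd40, Myc and Gadd45b were named after their values were seen, and the 4 miRNAs come from a list of miRNAs tied to the pathway. The genes and lists were chosen with earlier results of these data known. A gene of the pathway lists is not reported here and was left out of their counts.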

Additional observations from a re-analysis of the deposited data

Results flagged for a closer look

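Signals of the same genes outside the mRNA table were small. The circRNA novel_circ_000095, from annotated exons of Nfkb1 (chr3:135655500-135669339, minus strand, coordinates as deposited, 333 bases when spliced), had 8 back-spliced reads in mature B cells and 0 in the other stages. The circRNA novel_circ_000297, from 1 exon of Rel, had 4 reads in pre-B and 4 in mature B cells, and novel_circ_000235, antisense to Tnfaip3, had 4 in pre-B cells. The libraries held 1370 to 1751 back-spliced reads in all, and a circRNA that was detected in a library had a median of 4 reads there.

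In the lncRNA table, the transcript ENSMUST00000143784 of Ikbkg had 15.9 counts in the mature B library, 1.75 in the immature B library and 0 in the others. The transcript ENSMUST00000150214 of Ikbkb had 6 counts in pre-B, 4 in immature B and 8 in mature B cells, and ENSMUST00000238126 of Rela had 5.41 in pre-B and 1.63 in pro-B cells. These were listed because they lie above the 3 counts that a count of 0 allows and outside the comparisons of the report.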

How the results depend on the processing

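Of 180 recomputed log2 ratios of the 9 genes, 13 changed sign, 7 in FPKM and 6 with lncRNAs in the total, and 0 of these in mature B against pro-B cells. The 5 of these in ratios that had been called were Nfkbie from pro-B to pre-B cells (-0.31 with lncRNAs in the total, -0.37 in FPKM), Tnfaip3 from pre-B to immature B cells (0.0251 in FPKM) and Nfkbia from immature B to mature B cells (0.65 with lncRNAs in the total, 0.71 in FPKM). The 8 others were Nfkbia (-1.23 and -1.29) and Nfkbib (-0.94 and -0.37) from pro-B to pre-B cells, and Nfkbib (1.48 and 0.73) and Nfkbie (1.03 and 1.09) from immature B to mature B cells, each with lncRNAs in the total and in FPKM. The cause was not tested. From pro-B to pre-B cells, 7 genes were called with lncRNAs in the total and 7 in FPKM, in place of 4, and 9 at a fold of 1.5. Of all genes, 2.34% were higher and 83.5% lower with lncRNAs in the total, and 2.57% and 81.55% in FPKM. At a fold of 1.5 these shares were 21.65% and 44.8%. From pre-B to immature B cells, 1 was called at a minimum of 30 counts and 5 at a fold of 1.5, in place of 3. Of the 5838 genes, 29.3% were higher and 30.6% lower there at a fold of 1.5, and 4.83% and 5.41% at a minimum of 30 counts. At a fold of 1.5, 8 were called in mature B against pro-B cells in place of 4, where 21.0% of all genes were higher and 35.0% lower. With edgeR's exact test between 2 libraries at an unadjusted p under 0.05 and a dispersion of 0.16, 0 members were called in each of the 4 comparisons, and at a dispersion of 0.0001, which allows counting error only, 3, 2, 6 and 4. Over the 4 comparisons, 4.45% to 9.23% of all genes tested were called higher and 5.16% to 10.8% lower at a dispersion of 0.16. At 0.0001 these shares were 11.35% to 20.84% and 15.45% to 24.96%. The spread between mice is unknown here, so these libraries do not settle which dispersion holds. The ratio of inhibitor to subunit counts in mature B against immature B cells was 1.001 without Nfkbia in place of 0.450 (0.339 without it in FPKM), an alternative chosen after seeing the data, as were those without Tnfaip3 and Rel and in FPKM. No paired analysis was possible because each stage has 1 library and the stages share only 1 replicate number.

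Depth limits the pre-B and immature B values most: 3 counts, the limit that a count of 0 allows, are 12.5 and 13.4 CPM there, against 3.46 and 3.53 CPM in pro-B and mature B cells.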

Other observations

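FPKM and counts of the same gene did not keep 1 ratio over the stages. Relative to pro-B cells, the FPKM value per count of Ikbkb was 3.23 in pre-B, 2.95 in immature B and 1.29 in mature B cells. For Tnfaip3 it was 0.680, 1.91 and 0.618, and for Ikbkg it was 0.603, 2.06 and 1.74. Rela was at 2.59, 1.23 and 1.11, Nfkbib at 1.47, 1.77 and 1.005, and Nfkb1 at 0.860, 0.804 and 1.04. Over 1703 genes the median was 0.946, 1.03 and 1.03, with 5% to 95% of genes between 0.594 and 1.78 in pre-B cells. For Nfkbia, Rel and Nfkbie the values stayed between 0.946 and 1.03. The FPKM values of Ikbkb, Ikbkg, Tnfaip3, Rela and Nfkbib therefore differ from their counts in more than a scale per library, and the cause was not tested.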
